A study of Mus musculus with 7 samples.

Results

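Immediate early genes are the genes that neurons transcribe first after they have been excited, and 36 of them were followed here in cortex RNA of 7 APP/PS1 mice fed a ketogenic diet (KD) or a control diet (CD). The 36 were named by symbol, as transcription factors, signalling brakes and synaptic effectors known to be induced by activity, and the rule used no measured value. All 36 were among the 23413 gene symbols of the table, and all 36 passed the filter on low counts that left 15881 genes for testing.

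Calcium entering through NMDA receptors and voltage-gated channels activates the ERK and CaM kinase pathways, which act on CREB, SRF and MEF2 factors that are already bound at these genes. Transcription then starts within minutes, needs no new protein and fades quickly, so the level of such an RNA reports the recent past of the tissue, including handling, anaesthesia and the manner of death. In cortex, Fos, Arc, Egr1 and Npas4 are widely used as marks of recently active neurons, and Arc and Egr1 are needed for lasting synaptic plasticity.

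All 7 mice carried the APPswe and PSEN1dE9 transgenes of the 85Dbo line, a model of amyloid deposition, and no wild-type library was analysed here. The 4 CD mice received 74% of their energy as carbohydrate, 10% as protein and 16% as fat. The 3 KD mice received under 0.5% as carbohydrate, 10% as protein and 90% as fat. Diets began at 6 months of age, and the mice then lived alone in their cages for 7 months. Before death, ketone was measured in tail-nick blood, once after feeding and once after an overnight fast. The mice were killed after the morning measurement. Cortex was frozen at 13 months after exsanguination under isoflurane. The labels of the libraries write SD for the control diet, and SD below means standard deviation only. Each library is 1 mouse. Values are CPM, a gene's counts scaled to the same total in every library, unless a log2 scale is named.

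Several facts of the whole series bear on these genes. Libraries held from 22272883 to 36614954 counts, so that 3 counts correspond to between 0.0819 and 0.135 CPM. Markers of cortical excitatory neurons were present in every library, with Slc17a7, the vesicular glutamate transporter, between 445 and 630 CPM. CD replicate 4 and KD replicate 3 stood apart on the first principal component, at 41.1 and 48.3 against -26.2 to 2.77 for the other libraries. Summed markers of olfactory bulb were 46.5 to 233 CPM in CD and 22.8 to 120 CPM in KD, highest in those same libraries, and Eomes among them had no count in KD replicate 2. Summed meningeal markers were 57.9 to 355 CPM in CD and 50.6 to 164 CPM in KD, again highest there. Slc17a6 made up 167 CPM of the olfactory bulb sum in CD replicate 4 and 103 CPM in KD replicate 3, and Cdhr1 was at 32.4 and 12.9 CPM. Eomes, Th and Doc2g were raised in CD replicate 4 alone, at 7.76, 10.6 and 13.6 CPM. In KD replicate 3 they were at 0.404, 0.943 and 2.11 CPM, within the range of the remaining libraries. Summed choroid plexus markers were 453 CPM in CD replicate 1 and 9.13 to 68.01 CPM elsewhere, and summed striatum markers 252 CPM in KD replicate 3 and 98.1 to 149.8 CPM elsewhere. Of the tested marker genes only Aqp1, a water channel of choroid plexus, had a raw p of at most 0.01 (0.00914, adjusted p = 0.979 in edgeR), at 0.401 to 4.15 CPM in CD and 0.0898 to 0.470 CPM in KD. In the other marker lists the smallest raw p was 0.0138 for Gad1, 0.0299 for Th and 0.0396 for Csf1r, and lay above 0.05 for Aldoc, S100a9, Fezf2, Pecam1, Prox1, Lum, Mag and Penk. Xist, the RNA of the silenced X chromosome, was at 242 to 526 CPM in CD replicates 1 and 2 and KD replicates 1 and 2, and at 0.314 to 3.08 CPM in CD replicates 3 and 4 and KD replicate 3. Ddx3y, on the Y chromosome, had the opposite order, at most 0.301 CPM in the former and 301 to 346 CPM in the latter. The labels do not give the sex of the mice.

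Promoters of 3 of these genes are shown because Fos, Junb and Nr4a1 carry copies of the sequence that CREB binds and were highest in the same libraries. They are the 250 bases before the start site in RefSeq, build GRCm38.p6, read 5′ to 3′ on the strand of the gene. They lie at chr12:85473640-85473889 (plus strand) for Fos, chr8:84978749-84978998 (minus strand) for Junb and chr15:101266596-101266845 (plus strand) for Nr4a1. Capitals mark the short CRE site TGACG, written CGTCA where it lies on the other strand, and in Nr4a1 also an Egr site, which matches GCGNGGGCG on the other strand.
Fos: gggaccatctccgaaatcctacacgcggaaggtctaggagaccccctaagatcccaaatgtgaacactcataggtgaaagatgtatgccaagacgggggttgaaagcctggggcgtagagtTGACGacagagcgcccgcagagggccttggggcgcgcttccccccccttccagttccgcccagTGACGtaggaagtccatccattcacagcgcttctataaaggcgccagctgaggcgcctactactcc
Junb: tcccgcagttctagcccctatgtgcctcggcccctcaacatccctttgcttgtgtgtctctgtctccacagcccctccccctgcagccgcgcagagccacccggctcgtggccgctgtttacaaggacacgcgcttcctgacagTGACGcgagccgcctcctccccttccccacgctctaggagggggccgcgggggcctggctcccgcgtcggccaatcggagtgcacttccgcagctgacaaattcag
Nr4a1: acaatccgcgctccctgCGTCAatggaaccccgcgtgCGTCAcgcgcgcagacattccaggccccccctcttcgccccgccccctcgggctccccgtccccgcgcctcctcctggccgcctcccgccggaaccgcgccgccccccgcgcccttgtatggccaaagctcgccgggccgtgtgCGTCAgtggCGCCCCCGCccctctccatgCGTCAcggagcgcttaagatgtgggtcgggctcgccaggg

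Fos held 2 copies of it, Junb held 1, and Nr4a1 held 4 beside its Egr site. Of the 36 genes, 27 had a promoter entry of 250 bases before and 50 after the start, and both strands were searched. TGACG was present in 18 of the 27, or 66.7%, against 33.2% of 11498 tested genes with an entry. The full CRE, TGACGTCA, which contains the short site, was present in Dusp1, Btg2 and Maff, or 11.1% against 3.30%. The Egr site was found in 9 genes, or 33.3% against 11.9%, and the CArG box bound by SRF in Egr2 and Dusp5, or 7.41% against 1.67%. The AP-1 site TGANTCA was found in Csrnp1 alone, or 3.70% against 6.46%. These matches describe letters in a short window, and genes with several entries were counted where any entry held the motif. Egr1, Egr3, Dusp4, Ier2, Trib1, Arc, Vgf, Sik1 and Nptx2 had no entry.

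The question put to these genes was whether their RNA differed between the diets. No gene of the 36 passed an adjusted p of 0.05 in edgeR's quasi-likelihood test, where 0% of all tested genes did, and the smallest adjusted p of a member was 0.979. None had a raw p under 0.05, against 3.19% of all tested genes, and none a raw p of at most 0.01, the threshold the study used, against 0.321%. The KD and CD ranges overlapped in all 36. Among all genes, every KD library lay above every CD library in 1.64% and below in 2.56%. In 24 of the 36 the fitted value was higher in KD, against 49% of all genes, and the median log2 fold change was 0.20 against -0.00329 over all genes. The members' 95% intervals reached, at the median, 0.80 to each side on the log2 scale, so a change of the size of that median was not detectable in a single gene.

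**Figure D1:**
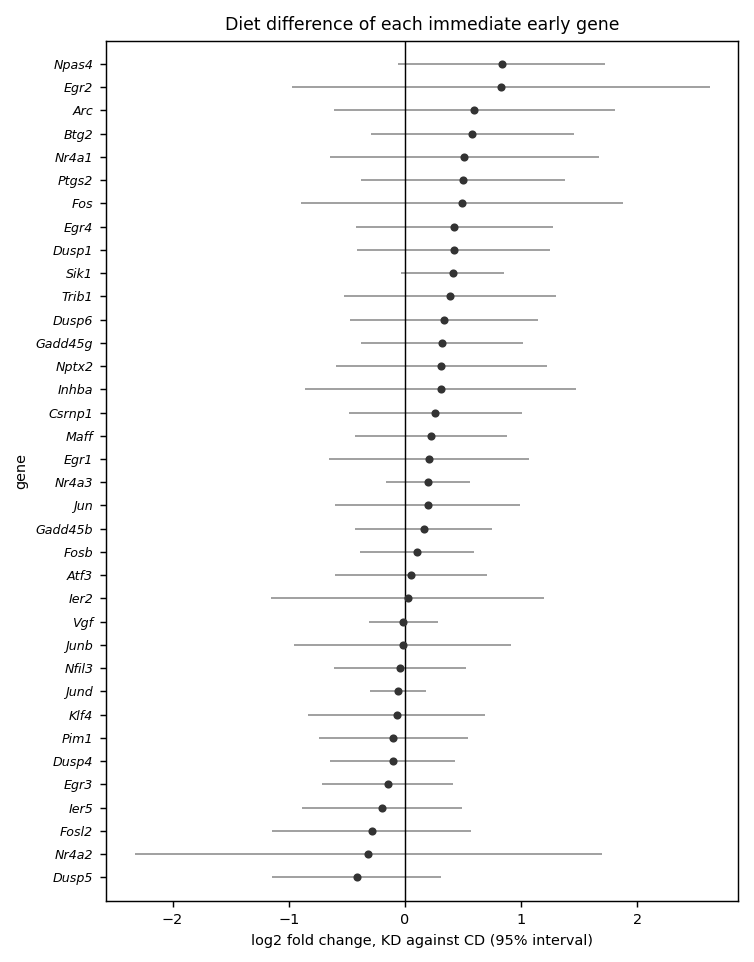
Log2 fold change of each of the 36 genes, KD against CD (x axis), ordered by size, with points for the edgeR estimate and lines for the 95% interval. Estimates run from -0.42 for Dusp5 to 0.83 for Npas4, and every interval includes 0.

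Fos, which joins Jun proteins in the AP-1 transcription factor, was measured at 13.7, 49.7, 11.5 and 8.74 CPM in CD replicates 1 to 4 and at 21.4, 44.5 and 22.2 CPM in KD replicates 1 to 3. Replicate 2 was far above the other libraries in both groups, and the remaining KD libraries lay above the remaining CD libraries. The means were 20.9 ± 19.3 CPM (SD, n = 4) and 29.4 ± 13.1 CPM (SD, n = 3), a log2 fold change of 0.49 (95% interval -0.89 to 1.88, p = 0.314 in the exact two-sided permutation test over 35 splits, where 0.0286 is the smallest possible). The gene lies at chr12:85473890-85477273 on the plus strand (mm10). Fosb, a longer-lasting partner of the Jun proteins, ranged from 4.51 to 7.26 CPM in CD and from 5.48 to 6.32 CPM in KD. It was again highest in CD replicate 2 and KD replicate 2.

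Junb had 9.38, 19.2, 6.68 and 7.37 CPM in CD and 7.06, 14.4 and 9.92 CPM in KD. Its highest libraries were also both numbered 2, and its log2 fold change was -0.02 (95% interval -0.95 to 0.92). Jun, a component of AP-1, followed another order, with 12.996, 16.6, 11.4 and 20.02 CPM in CD and 12.0, 10.8 and 29.6 CPM in KD. KD replicate 3 was its highest library and KD replicate 2 its lowest. Fosl2 had 31.0, 56.1, 31.1 and 94.4 CPM in CD and 37.1, 53.01 and 38.5 CPM in KD, with CD replicate 4 on top. Jund, the AP-1 member with the steadiest transcription, stayed between 19.1 and 24.3 CPM in all 7 libraries. Of the 6 AP-1 genes, 3 had higher fitted values in KD and 3 lower, with a median log2 fold change of 0.04.

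**Figure D2:**
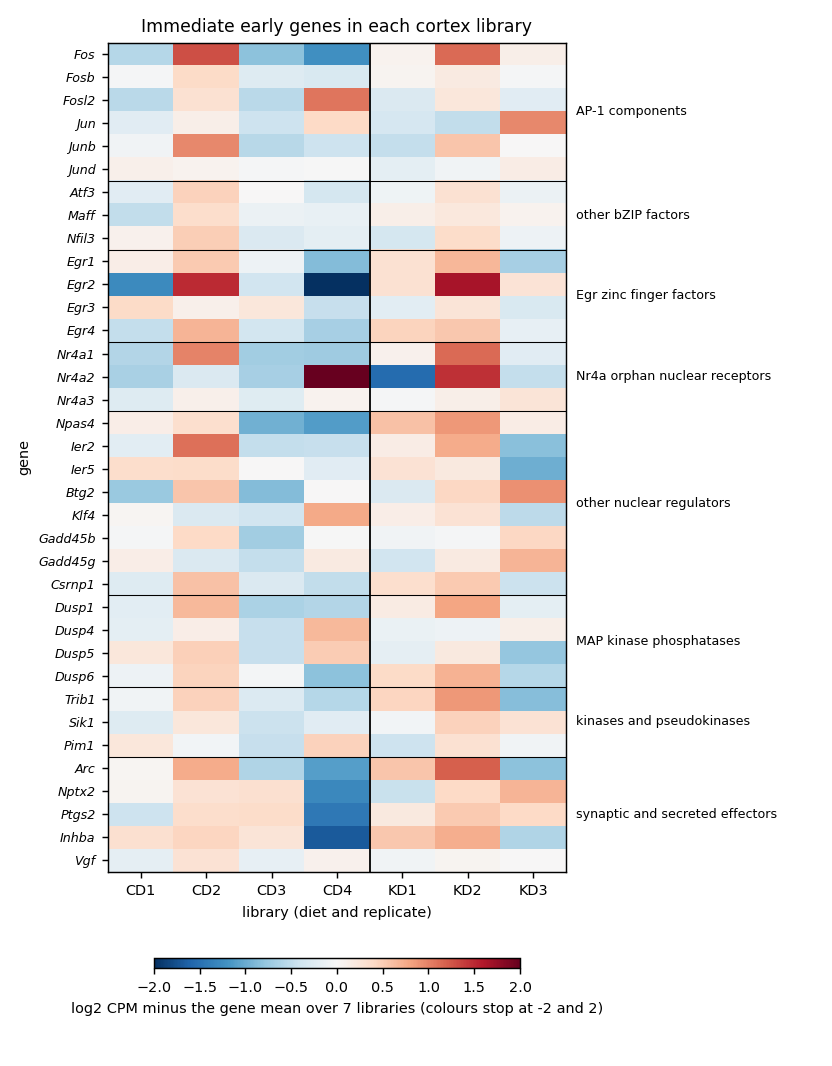
Log2 CPM of each gene (rows, grouped by role) in each of 7 libraries (columns), minus the gene's mean over the libraries, with red above and blue below. Red cells gather in the columns of CD replicate 2 and KD replicate 2, blue cells in CD replicate 4, and the columns of a diet differ among themselves.

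Atf3, Maff and Nfil3, further leucine zipper factors, were all low to moderate, at 1.64 to 2.88, 1.05 to 1.91 and 8.64 to 15.5 CPM over the 7 libraries. In each of the 3, CD replicate 2 and KD replicate 2 were the highest libraries. Their log2 fold changes were 0.05, 0.22 and -0.04.

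Egr2, a zinc finger factor of the Egr family, spanned the widest range of the 36 genes, with 2.62, 17.9, 4.88 and 1.53 CPM in CD and 7.83, 20.01 and 7.68 CPM in KD. The highest library was 13.1 times the lowest. The gene lies at chr10:67535475-67542188 on the plus strand. The lower KD libraries exceeded 3 of the 4 CD libraries, and CD replicate 2 came close to KD replicate 2. The log2 fold change was 0.82 (95% interval -0.98 to 2.62, exact permutation p = 0.229). Egr1, the family's most studied member in synaptic plasticity, had 85.4, 113, 73.1 and 43.0 CPM in CD and 96.9, 124 and 49.3 CPM in KD. Its lowest libraries were CD replicate 4 and KD replicate 3, and its log2 fold change was 0.20 (95% interval -0.66 to 1.06). Egr4 had 2.32 to 5.85 CPM in CD and 3.28 to 5.35 CPM in KD, and Egr3 5.52 to 9.89 and 6.11 to 9.11 CPM. Of the 36 genes, only Egr3 was highest in CD replicate 1.

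The Nr4a genes encode orphan nuclear receptors whose activity follows their amount. Nr4a1 had 20.1, 60.0, 18.7 and 18.5 CPM in CD and 32.1, 66.4 and 25.9 CPM in KD. As for Fos, replicate 2 was apart in both groups and the other KD libraries lay above the other CD libraries. The means were 29.3 ± 20.4 CPM (SD, n = 4) and 41.5 ± 21.8 CPM (SD, n = 3), a log2 fold change of 0.51 (95% interval -0.65 to 1.67, exact permutation p = 0.371).

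Nr4a2, also a marker of particular neuron populations such as midbrain dopamine neurons and claustrum, had 14.6, 18.8, 14.5 and 103 CPM in CD and 7.91, 63.3 and 16.6 CPM in KD. Only CD replicate 4 and KD replicate 2 were high, so this order matched neither Nr4a1 nor the diets. Its log2 fold change was -0.32 (95% interval -2.33 to 1.70). Nr4a3 was even, at 6.24 to 8.89 CPM over all libraries.

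Npas4, a factor induced in neurons by calcium entry and known for shaping inhibitory synapses, had 6.47, 7.46, 3.05 and 2.73 CPM in CD and 8.85, 10.8 and 6.56 CPM in KD. KD replicates 1 and 2 lay above every CD library and KD replicate 3 between CD replicates 1 and 2. The means were 4.93 ± 2.39 CPM (SD, n = 4) and 8.72 ± 2.10 CPM (SD, n = 3). The log2 fold change of 0.83 (95% interval -0.06 to 1.72) was the largest of the 36 genes and had the smallest raw p in edgeR's test, 0.0634, with 0.171 in the exact permutation test. Within each diet its lowest libraries were those of low Xist. The gene lies at chr19:4984355-4990316 on the minus strand.

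Among the other nuclear regulators, Ier5, a heat shock factor partner, was the most abundant, with 109.7, 112, 86.5 and 74.0 CPM in CD and 105, 98.9 and 43.9 CPM in KD. Its KD value in replicate 3 was the lowest of all libraries. Btg2, an antiproliferative cofactor, had 12.1, 29.5, 11.0 and 20.3 CPM in CD and 16.6, 26.9 and 38.0 CPM in KD, a log2 fold change of 0.58 (95% interval -0.30 to 1.45). Ier2 ranged from 1.21 to 4.65 CPM, Csrnp1 from 6.45 to 13.6, Klf4 from 2.02 to 4.92, Gadd45b from 3.97 to 8.58 and Gadd45g from 1.53 to 3.41 CPM. Of the 8 genes in this group 6 had higher fitted values in KD.

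The dual-specificity phosphatases remove the activating phosphates of MAP kinases and so close the loop that induced them. Dusp6, specific for ERK, had 72.4, 107, 76.0 and 44.4 CPM in CD and 102, 127 and 52.6 CPM in KD. Dusp1 had 13.8, 25.2, 10.3 and 10.7 CPM in CD and 18.0, 27.7 and 14.1 CPM in KD. Both were highest in CD replicate 2 and KD replicate 2, and their log2 fold changes were 0.34 and 0.42. Dusp5 was the gene with the lowest fitted value, -0.42 (95% interval -1.14 to 0.31), at 2.50 to 4.89 CPM in CD and 2.02 to 3.94 CPM in KD. Dusp4 ranged from 10.5 to 22.7 CPM, with CD replicate 4 highest.

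Sik1, a salt-inducible kinase that restrains the CREB coactivators, had 12.4, 17.3, 11.0 and 12.7 CPM in CD and 14.2, 20.4 and 18.2 CPM in KD. The KD libraries overlapped only with CD replicate 2, and the log2 fold change was 0.41 (95% interval -0.03 to 0.85, raw p = 0.0643, exact permutation p = 0.143). Trib1, a pseudokinase, had 6.83 to 13.9 CPM in CD and 5.57 to 18.5 CPM in KD, with KD replicate 3 the lowest library. Pim1, a serine/threonine kinase, ranged from 2.07 to 3.91 CPM.

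Arc, which drives removal of AMPA receptors from synapses, had 116, 189, 74.0 and 52.8 CPM in CD and 165, 257 and 63.9 CPM in KD. The gene lies at chr15:74669083-74672570 on the minus strand. Within each group the libraries of high Xist were above those of low Xist. The means were 107.9 ± 59.9 CPM (SD, n = 4) and 162 ± 96.8 CPM (SD, n = 3), a log2 fold change of 0.60 (95% interval -0.61 to 1.80, exact permutation p = 0.457). Per kilobase of exon, Arc was also the most abundant of the 36 genes, at 35.3 CPM per kb in CD and 53.1 in KD, and Inhba the lowest, at 0.503 and 0.616. Behind Arc came Ier5, Dusp6, Vgf and Egr1 in CD, and Dusp6, Ier5, Egr1 and Vgf in KD.

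Nptx2, a secreted pentraxin that clusters AMPA receptors, had 18.2, 21.5, 22.1 and 7.24 CPM in CD and 12.9, 23.2 and 28.3 CPM in KD. Inhba, the activin subunit, had 3.90, 4.21, 3.75 and 0.983 CPM in CD and 4.58, 5.17 and 2.07 CPM in KD. Ptgs2, the inducible cyclooxygenase, had 14.9, 25.1, 25.4 and 7.32 CPM in CD and 22.7, 28.4 and 26.1 CPM in KD. CD replicate 4 was the lowest library for all 3 of these effectors. Vgf, a neuropeptide precursor, varied little, from 50.6 to 70.3 CPM, and had a log2 fold change of -0.01 (95% interval -0.31 to 0.28).

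**Figure D3:**
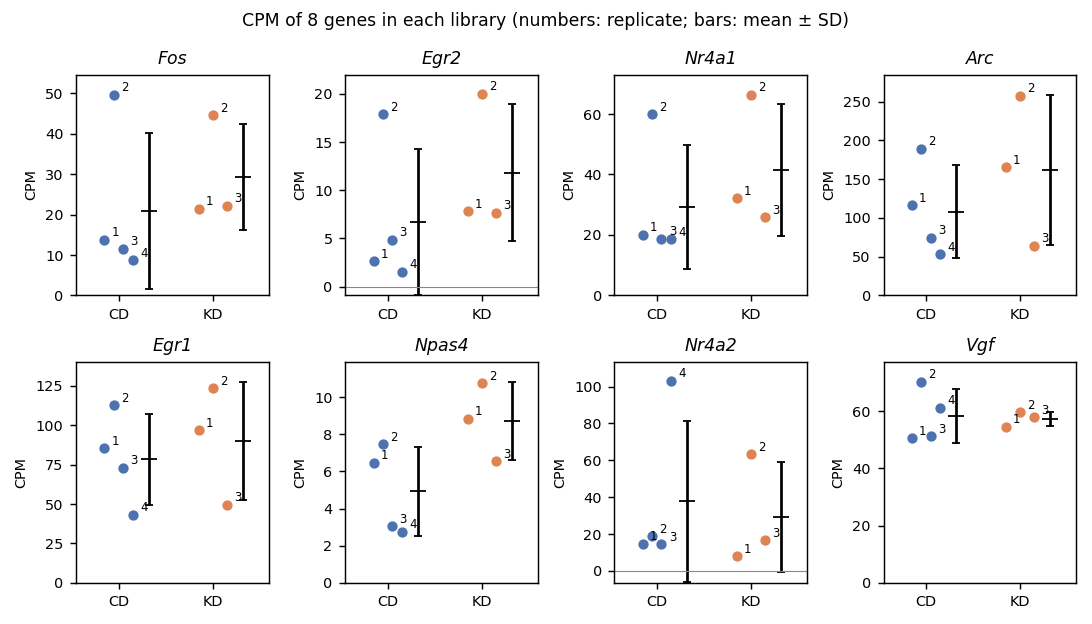
CPM (y axis) of 8 genes in each library, as points numbered by replicate, with the mean and SD of each diet as black bars (n = 4 CD, n = 3 KD). Replicate 2 is the highest library of each diet for Fos, Egr2, Nr4a1, Arc, Egr1 and Npas4, while Nr4a2 is highest in CD replicate 4 and Vgf is nearly level.

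Libraries of the same diet differed in these genes. The median biological coefficient of variation of the 36, edgeR's measure of spread between replicates, was 32.9%, against 17.5% over all tested genes. At their own abundance, 23 of the 36 lay above the trend of variation, against 23.0% of all genes.

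CD replicate 2 and KD replicate 2 were the highest libraries in 16 of the 36 genes, against 2.99% of all tested genes. They were Fos, Fosb, Junb, Atf3, Maff, Nfil3, Egr1, Egr2, Egr4, Nr4a1, Ier2, Csrnp1, Dusp1, Dusp6, Trib1 and Arc. KD replicate 2 was the highest library in 11 genes, against 7.39% of all genes, and CD replicate 2 in 11, against 10.9%. CD replicate 4 was the lowest library in 15 genes, against 13.5%, and KD replicate 3 in 5, against 18.1%. In CD replicate 2 and in KD replicate 2, 32 of 36 genes lay above the mean of their own diet, against 51.4% and 51.8% of all genes. The median deviation of the 36 was 0.51 and 0.36 on the log2 scale, where the medians over all genes were 0.00620 and 0.00570. Of the 12 promoters of genes highest in those libraries, 11 held the short CRE site, which describes a set chosen by its values and was not tested.

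**Figure D4:**
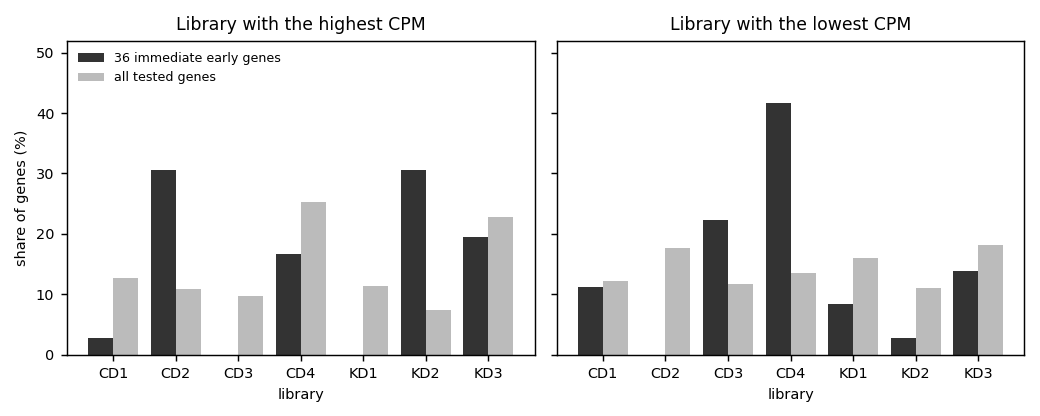
Share of genes, in percent (y axis), for which each library (x axis) had the highest CPM (left) or the lowest CPM (right), for the 36 immediate early genes (dark) and all 15881 tested genes (light). CD replicate 2 and KD replicate 2 each lead in 30.6% of the 36 genes, and CD replicate 4 is lowest in 41.7%.

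The order by Xist was also shared. In 8 of the 36 genes, Fosb, Egr1, Arc, Ier2, Ier5, Trib1, Csrnp1 and Inhba, each of the 4 libraries with high Xist exceeded each of the 3 with low Xist, against 3.25% of all tested genes, and in none was the order opposite. Low Xist coincided with high meningeal markers and high summed olfactory bulb markers, mostly Slc17a6, in CD replicate 4 and KD replicate 3. The parts of Xist and of these markers in the levels cannot be told apart in those libraries. Summed oligodendrocyte markers were lowest in CD replicate 3 and KD replicate 3, at 1078 and 1126 CPM against 2092 to 4189 CPM elsewhere. Their part in the result was not tested.

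Within the libraries of high Xist, 2 of each diet, KD minus CD had a median of 0.14 on the log2 scale over the 36 genes, and 20 of them were higher in KD. Within those of low Xist, 2 CD and 1 KD, the median was 0.16 and 24 were higher. Of the 36 genes, 13 were higher in both. The share over all genes was not computed, so this number cannot show whether the classes agreed. Over all genes the medians were -0.00559 and 0.00330, with 48.8% and 50.4% higher in KD. With log2 Xist as a covariate in edgeR's test, Npas4 had a log2 fold change of 0.82 (edgeR adjusted p = 0.680 over all genes). Ier5 had -0.38, and these were the 2 members with a raw p under 0.05, against 6.96% of all tested genes.

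Single libraries changed how large the diet difference appeared. Without CD replicate 2, 8 of the 36 genes had a raw p under 0.05 in edgeR's test, against 2.13% of all tested genes, and all 8 were higher in KD. They were Fos (log2 fold change 1.40), Egr2 (2.004), Nr4a1 (1.15), Npas4 (1.12), Btg2 (0.93), Egr4 (0.84), Dusp1 (0.81) and Sik1 (0.57). Their adjusted p was 0.996, and the median log2 fold change of the 36 genes was 0.43. Without KD replicate 2 the median was 0.0375, and 19 of 36 were higher in KD, against 48.4% of all tested genes. None had a raw p under 0.05 in edgeR's test, against 4.56%.

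With CD replicate 2 and KD replicate 2 both left out, an alternative chosen after seeing the data, Fos (0.95), Egr2 (1.37), Nr4a1 (0.61) and Sik1 (0.44) had a raw p under 0.05, against 2.72% of all genes, and the adjusted p was 0.998. With CD replicate 4 and KD replicate 3 both left out, also chosen after seeing the data, Trib1 (0.60) and Dusp6 (0.44) did, against 2.54%. No adjusted p of a member fell below 0.680 in any of the 19 alternatives tried. A fit with the replicate number as a block left out CD replicate 4, and the labels do not say that equal numbers mark pairs. In that fit 5 genes had a raw p under 0.05, Npas4, Nr4a1, Sik1, Egr2 and Dusp1, against 5.89% of all genes.

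**Figure D5:**
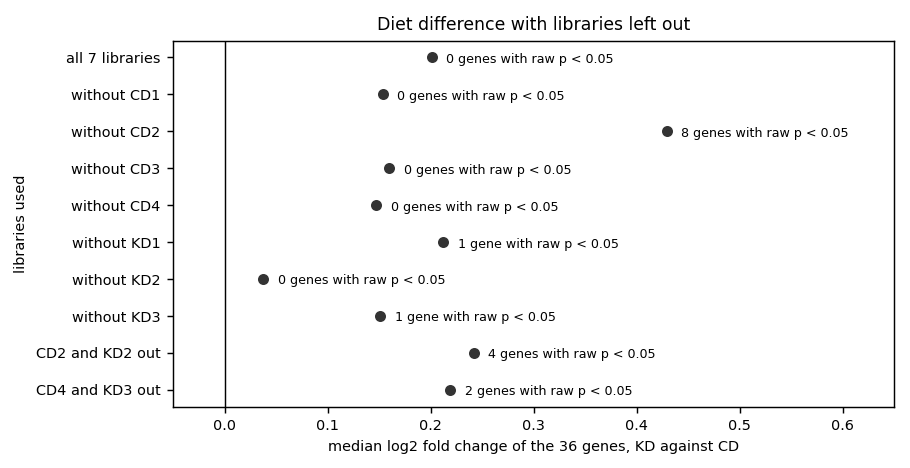
Median log2 fold change of the 36 genes, KD against CD (x axis), with all libraries and with the named libraries left out (y axis), and the number of the 36 with a raw p under 0.05 in edgeR's test. The median runs from 0.0375 without KD replicate 2 to 0.43 without CD replicate 2.

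Further genes known to follow neuronal activity were listed beside the 36, and 39 of these 40 were tested. None had a raw p under 0.05, 22 were higher in KD, and the median log2 fold change was 0.0186. Rasl11a, a small GTPase, had the smallest raw p of that list, 0.0615, with a log2 fold change of 0.76. Bdnf, the neurotrophin induced by activity, had 36.5, 58.4, 52.3 and 41.7 CPM in CD and 44.1, 56.6 and 55.4 CPM in KD. Its 2 highest libraries were again CD replicate 2 and KD replicate 2, as for 13 of the 39, and its log2 fold change was 0.15.

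Of the genes that carry the signal to these promoters (ERK cascade, CaM kinases, CREB, SRF and MEF2 factors and the receptors above them), 46 were tested. Of these 29 were higher in KD, with a median log2 fold change of 0.0275. Mkl1, now named Mrtfa, an SRF coactivator, was the only one with a raw p under 0.05 (0.0207), and it was lower in KD, at 17.8 to 20.7 CPM against 21.2 to 28.4 CPM in CD, with an adjusted p of 0.979. Creb1 had a log2 fold change of 0.02. Mapk3, which encodes the kinase ERK1, had 0.38, resting on KD replicate 3, at 116 CPM against 47.8 to 62.9 CPM in all other libraries.

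Glucocorticoid-responsive genes were listed too, since handling and stress hormone can reach cortex RNA at the same time. All 12 had lower fitted values in KD, with a median log2 fold change of -0.49, where 49% of all tested genes had higher ones. Mt2, a metallothionein, had the smallest raw p (0.0116, log2 fold change -0.95), at 11.6 to 27.4 CPM in CD and 10.5 to 14.3 CPM in KD. Plin4, Mt1 and Tsc22d3, named after their values were seen, also had a raw p under 0.05 in edgeR's test, against 3.19% of all tested genes. None of the 12 passed adjustment. Of 12 hypoxia-responsive genes 3 were higher in KD, and of 8 heat shock genes 5 were, none with a raw p under 0.05. Hilpda and Dnajb1 had the smallest raw p of those lists, 0.113 and 0.118.

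Exons of Jun, Junb, Jund, Dusp1, Dusp5, Csrnp1 and Pim1 overlap a gene on the opposite strand in GENCODE M21, and the strand setting of the counting is not given in the sources used here, so reads of such a partner may be included in those values. The cortex libraries are bulk RNA, in which fewer active cells and less RNA per cell cannot be told apart.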

How the data were processed

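Total RNA (300 ng) from 10 mg of frozen cortex of each mouse was made into stranded libraries with ribosomal RNA depletion and sequenced as 50-bp read pairs. STAR was used by the authors for alignment (mm10) and for counting per gene. The deposited values are raw counts, 1 per gene symbol and mouse, without normalization. Versions, annotation and strand setting are not given in the sources used here. Diet and replicate were taken from the labels.

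From the counts, edgeR 4.0.16 (R 4.3.3) was run on the whole table without covariates. Genes were filtered by filterByExpr, libraries scaled by TMM, and diets compared by the robust quasi-likelihood test (glmQLFit, glmQLFTest), adjusted by Benjamini-Hochberg over 15881 genes. CPM used library totals, and exact permutation tests used log2 CPM with a prior count of 1. Libraries were called high in Xist above 10 CPM, a limit set after seeing the data. Coordinates and exon lengths came from GENCODE M21 (GRCm38). The replicates differed by far more than sampling noise, with a chi-square per gene of 15.8 to 68.5. P-values set the diet difference against the spread between these 7 mice, and floors cover counting error only.

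The 36 members and the other lists were chosen with earlier results of these data known. All 36 members are named, with Bdnf, Creb1 and Mapk3, the genes of other lists with a raw p of at most 0.01 or else the smallest raw p, and markers used in a check; 1 gene that this rule names is not reported here. Alternatives were RLE or library-size scaling, other filters (at least 1 count, or 1 CPM in 3 libraries), DESeq2 1.42.0, limma-voom (3.58.1), the likelihood-ratio test, robust=FALSE, a replicate block, Xist as a covariate and libraries left out. In a test on simulated counts, an adjusted p under 0.05 was reached by 60.7% of 196 genes given a log2 change of 1 (15734 genes in all) and by 84.1% of 195 given a change of 2 (15725 genes). Those genes were drawn at random from all tested genes, whose median coefficient of variation was 17.5% against 32.9% for the 36. Recovery of the more variable 36 was not simulated, so these shares do not apply to them.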

Additional observations from a re-analysis of the deposited data

Results flagged for a closer look

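In the CD group of 4 libraries, 37 values (the 36 genes and their summed level) were screened for a library lying well away from the remaining 3, by its gap to the nearest of them as a share of the group's range, both on the log2 CPM scale. The gap was large enough by Dixon's 95% criterion in 4, where chance gives about 1.85, and the values share libraries. Nr4a1 in CD replicate 2 (60.0 CPM against 18.5 to 20.1) had a gap of 0.900 of the log2 range. Nr4a2 in CD replicate 4 (103 CPM against 14.5 to 18.8) had 0.853. In the same library, Nptx2 (7.24 CPM against 18.2 to 22.1) had 0.834 and Inhba (0.983 CPM against 3.75 to 4.21) had 0.909. On the CPM scale, tried after seeing the data, 7 values passed the criterion, 3 of them the same (Nr4a1, Nr4a2 and Inhba), with Fos (0.878), Egr4 (0.854), Ier2 (0.895) and Csrnp1 (0.838), all in CD replicate 2, while Nptx2 did not pass. CD replicate 4 was also the CD library with the highest olfactory bulb and meningeal markers, whose part in these values was not tested.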

How the results depend on the processing

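Of 36 genes, 17 had the same sign in all 19 alternatives, 15 of them higher and 2 lower in KD. No member passed an adjusted p of 0.05 in any of them (edgeR, DESeq2 and limma-voom). The median log2 fold change of the 36 stayed above 0, and the causes of the changes below were not tested. Depth limits genes near 1 CPM such as Maff most, and with 7 mice a change must be near 0.80 on the log2 scale, at the median gene, for its interval to exclude 0.

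Members with a raw p under 0.05 numbered 0, and 1 with DESeq2, 1 with the likelihood-ratio test, 2 with limma-voom and 2 with Xist as a covariate (1 of these at most 0.01). They numbered 4 with CD replicate 2 and KD replicate 2 left out together (2 at most 0.01) and 2 with CD replicate 4 and KD replicate 3 left out together. Of the other activity-induced genes, 1 had a raw p under 0.05 with DESeq2, 1 with limma-voom and 1 with either pair left out. Of the upstream genes, 6 did with Xist as a covariate and 0 with either pair left out, against 1 otherwise. Of all tested genes, 3.19% had a raw p under 0.05 in the main fit, 3.70% with DESeq2, 3.12% with the likelihood-ratio test and 2.81% with limma-voom. The share was 6.96% with Xist as a covariate, and 2.72% and 2.54% with the pairs left out. At most 0.01 were 227 of 15881 genes with Xist, and 38 of 16088 without CD replicate 2 and KD replicate 2.

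Some log2 fold changes turned sign. With limma-voom Junb was 0.14, Nfil3 0.0133 and Vgf 0.00354. With Xist as a covariate Nr4a2 was 0.0250 and Ier2 -0.15. With CD replicate 2 and KD replicate 2 left out, Junb was 0.13 and Vgf 0.0624. With CD replicate 4 and KD replicate 3 left out, Fosl2 was 0.21, Jun -0.25, Nr4a2 1.18, Ier5 0.000650, Dusp4 0.0537, Klf4 0.43, Nptx2 -0.17, Vgf 0.00369 and Pim1 0.0733.

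Over all tested genes, deviations of same-numbered libraries from their diet means had correlations of 0.224, 0.0503 and 0.230. Other combinations had -0.223 to 0.0623, the highest for CD replicate 1 with KD replicate 2. Same-numbered libraries also shared high or low Xist, so these values cannot decide whether replicate numbers mark pairs. With the replicate block, over libraries numbered 1 to 3, 5 members had a raw p under 0.05 (1 at most 0.01), as had 2 of the other activity-induced genes (1 at most 0.01) and 2 upstream genes. Of all tested genes, 5.89% had a raw p under 0.05, and 182 of 15660 had one of at most 0.01. Under that block Fosl2 was 0.15, Egr1 -0.0856, Nr4a2 0.38, Ier2 -0.13, Dusp4 0.13, Klf4 0.18, Atf3 -0.0582, Nptx2 -0.00978, Inhba -0.0900, Vgf 0.00802 and Pim1 0.0266.

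With each library left out in turn, 0 to 8 members had a raw p under 0.05 (0 to 3 at most 0.01), with the highest counts without CD replicate 2. Of all tested genes, 1.63% to 7.38% had a raw p under 0.05 in these fits, and 2.13% without CD replicate 2. At most 0.01 were 19 to 211 genes, and 31 of 15851 without CD replicate 2. Among the other activity-induced genes 0 to 2 had a raw p under 0.05, and among upstream genes 0 to 4. Of the former, 15 to 34 were higher in KD, against 47.3% to 50.7% of all genes. The log2 fold changes that turned sign ran from -0.48 to 0.12 for Fosl2, -0.40 to 0.44 for Jun, -0.34 to 0.45 for Junb, -0.15 to 0.0105 for Jund, -0.11 to 0.50 for Egr1, -0.0268 to 1.15 for Nr4a1, -1.61 to 0.88 for Nr4a2, -0.42 to 0.57 for Ier2 and -0.41 to 0.11 for Ier5. They ran from -0.25 to 0.12 for Dusp4, -0.25 to 0.21 for Klf4, -0.11 to 0.25 for Atf3, -0.00543 to 0.35 for Gadd45b, -0.0205 to 0.74 for Trib1, -0.28 to 0.15 for Nfil3, -0.000394 to 0.62 for Inhba, -0.0759 to 0.10 for Vgf and -0.32 to 0.0544 for Pim1.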
